A study of Mus musculus with 8 samples.

Results

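Germline gene promoters are the CpG-rich start regions of genes whose products work in germ cells and meiosis, and here they are 5 windows of 10 kb around Dazl, Ddx4, Sycp3, Asz1 and Stk31. The windows were set by coordinates on the mouse mm9 build, and no measured value enters that rule. The members were, however, chosen with earlier results of these data known. Of the 159 CpGs that at least 1 library listed in these windows, 81 were listed in all 8 libraries, out of 622768 such CpGs in the whole series. The Dazl window held 36 of the 81, the Ddx4 window 27, the Sycp3 window 12 and the Asz1 window 6. No library listed a CpG in the Stk31 window, so Stk31, which encodes a Tudor-domain protein of germ cells, has no value here.

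The libraries came from mouse embryonic stem cells of strain 129/SvP, plated sparsely in medium with serum and the cytokine LIF. They were reduced representation bisulfite sequencing (RRBS) libraries. In this assay DNA from CpG-rich fragments is converted with bisulfite, and the share of reads that stay unconverted is taken as the methylation level of each CpG. There were 4 treatments, each sampled at day 5 and at day 2: L-proline at 1 mM with vitamin C at 500 µM, vitamin C alone at 500 µM, L-proline alone at 1 mM, and no addition. Each treatment and day was 1 library, with no replicate. The 8 libraries listed 762041 to 1006832 CpGs each at 10 reads or more, with a median of 27 to 56 reads on the shared CpGs. Mean methylation over all shared CpGs was 16.1 to 18.3% in the 4 libraries with vitamin C and 19.0 to 24.0% in the 4 without. A level is an average over the cells and both alleles of a library, so that fewer methylated cells and partial methylation in every cell cannot be told apart. Bisulfite also reads 5-hydroxymethylcytosine, the first oxidation product of 5-methylcytosine, as methylated.

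In mouse development the CpG-rich promoters of many germline genes gain DNA methylation around implantation, and this methylation keeps them silent in somatic cells, while naive embryonic stem cells carry less of it. Vitamin C is a cofactor of the TET dioxygenases, which oxidise 5-methylcytosine, and germline promoters are among the sequences known to lose methylation in stem cells given vitamin C. L-proline is an amino acid that moves embryonic stem cells toward a later, primed-like state.

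The promoter sequences show which letters the measurements cover. The RefSeq promoters of Dazl, Ddx4 and Asz1 (sequence table of GRCm38.p6) were placed on the mm9 positions in the files by the spacing of their CG letters. In the 300 bases searched, 8 of 28 CG letters of Dazl, 30 of 38 of Ddx4 and 10 of 17 of Asz1 fell on listed CpGs. Each sequence is given 5′ to 3′ on the minus strand, from 250 bases before the start site to 30 bases after it, with every CG that at least 1 library listed in capitals. On mm9 they lie at chr17:50432916-50433195 (Dazl), chr13:113442489-113442768 (Ddx4) and chr6:18059032-18059311 (Asz1).
Dazl: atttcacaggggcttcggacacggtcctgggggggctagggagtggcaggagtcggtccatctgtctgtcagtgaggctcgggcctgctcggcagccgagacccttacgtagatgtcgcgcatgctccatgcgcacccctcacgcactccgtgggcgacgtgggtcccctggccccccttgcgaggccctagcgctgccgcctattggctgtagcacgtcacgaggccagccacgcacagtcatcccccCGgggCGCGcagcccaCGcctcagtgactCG
Ddx4: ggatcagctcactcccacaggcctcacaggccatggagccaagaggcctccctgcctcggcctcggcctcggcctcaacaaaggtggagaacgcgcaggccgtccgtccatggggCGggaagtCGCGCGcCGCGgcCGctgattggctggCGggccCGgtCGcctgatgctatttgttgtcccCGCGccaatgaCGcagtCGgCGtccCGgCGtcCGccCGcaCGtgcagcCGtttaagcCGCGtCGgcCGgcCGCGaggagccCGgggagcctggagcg
Asz1: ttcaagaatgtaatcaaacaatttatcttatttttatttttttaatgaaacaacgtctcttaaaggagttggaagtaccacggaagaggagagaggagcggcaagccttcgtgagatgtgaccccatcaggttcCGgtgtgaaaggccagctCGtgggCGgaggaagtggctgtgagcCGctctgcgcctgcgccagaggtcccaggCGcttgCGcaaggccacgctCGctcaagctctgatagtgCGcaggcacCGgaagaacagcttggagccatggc
The capitals fill most of the Ddx4 promoter, are spread through the second part of the Asz1 promoter, and sit at the very end of the Dazl sequence. The Sycp3 promoter could not be placed in this way, so its CpGs are given by their position only. The letters CACGTG, the E-box bound by MAX and its partner MGA in the complex that silences germline genes, occurred once in the Ddx4 promoter and 2 times in that of Sycp3, once in each Stk31 promoter, and not in those of Dazl and Asz1. They read the same on both strands and occurred in 7.15% of the 32851 promoters of the table. The letters GCGGGA, the core of the E2F6 site, were searched on both strands and occurred once each in the Ddx4 and Sycp3 promoters and in 20% of all promoters.

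Asz1 encodes an ankyrin-repeat protein of the piRNA pathway, which silences transposons in the male germ line, and its promoter carried the highest methylation of the 4 measured windows in all 8 libraries. Its 6 shared CpGs, from 115 bases before to 33 bases after the start site, averaged 41.3% at day 5 and 49.8% at day 2 with both supplements and 28.2% and 39.1% with vitamin C. In the libraries without vitamin C the level was 84.3% and 75.2% with L-proline and 78.2% and 60.9% untreated. All 4 libraries with vitamin C lay below all 4 without it. The mean was 39.6 ± 8.88% with vitamin C and 74.7 ± 9.95% without (SD over 4 libraries each), a matched difference of -35.0 ± 13.6 points (SD, n = 4 pairs). The shallowest of these values rested on 98 pooled reads, and its 95% Wilson interval, which covers counting error only, ran from 33.5 to 52.7% around 42.9%.

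Sycp3 encodes a protein of the synaptonemal complex, the scaffold that holds paired chromosomes in meiosis. Its 12 shared CpGs, at chr10:87922370-87922626, averaged 15.4% at day 5 and 18.9% at day 2 with both supplements and 9.34% and 12.8% with vitamin C. Without vitamin C the level was 50.3% and 35.3% with L-proline and 40.1% and 26.1% untreated. The groups again did not overlap, with the lowest level in the vitamin C library of day 5 and the highest in the L-proline library of day 5. The mean was 14.1 ± 4.07% with vitamin C and 37.9 ± 10.1% without, a matched difference of -23.8 ± 10.6 points (SD, n = 4 pairs).

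Dazl encodes an RNA-binding protein needed for germ cell development, and its window held 2 stretches of CpGs with different methylation. The 12 CpGs from 124 to 379 bases after the start site averaged 22.4% at day 5 and 26.7% at day 2 with both supplements and 22.6% and 17.7% with vitamin C. In the libraries without vitamin C the level was 66.6% and 49.5% with L-proline and 52.5% and 32.6% untreated. These 12 CpGs differed by -28.0 ± 12.4 points over the 4 vitamin C pairs, with no overlap between the libraries with and without vitamin C. The 22 CpGs from 653 to 795 bases after the start site were nearly unmethylated in all 8 libraries, at 0.570 to 1.11% with vitamin C and 0.585 to 1.21% without. Over the whole window of 36 CpGs the mean was 9.82 ± 0.852% with vitamin C and 19.7 ± 4.18% without. A single CpG 492 bases before the start site was more methylated, at 53.3% and 45.8% with both supplements and 70% and 80% with vitamin C. Without vitamin C the level was 63.6% and 80% with L-proline and 85% and 100% untreated (day 5 and then day 2 in each case), and there the groups overlapped. The last shared CpG, 501 bases after the start site, lay between 0 and 16.0% with vitamin C and between 0 and 19.2% without.

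Ddx4, the mouse Vasa gene, encodes an RNA helicase that marks germ cells. Its start region was low in methylation in all 8 libraries. The 24 CpGs from 93 bases before to 120 bases after the start site averaged 5.17% at day 5 and 4.58% at day 2 with both supplements and 4.07% and 3.88% with vitamin C. In the libraries without vitamin C the level was 17.5% and 12.2% with L-proline and 10.8% and 9.62% untreated. The libraries with vitamin C, at 4.42 ± 0.576%, lay below all those without, at 12.5 ± 3.45%, and the matched difference was -8.10 ± 2.90 points (SD, n = 4 pairs). As a ratio of the 2 means this was 0.353, against 0.531 for Asz1, 0.372 for Sycp3 and 0.444 for the 12 Dazl CpGs. Another 3 CpGs, 4178 to 4310 bases before the start site, were highly methylated and overlapped between groups, at 64.9 to 80.6% with vitamin C and 60.9 to 92.4% without.

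**Figure D1:**
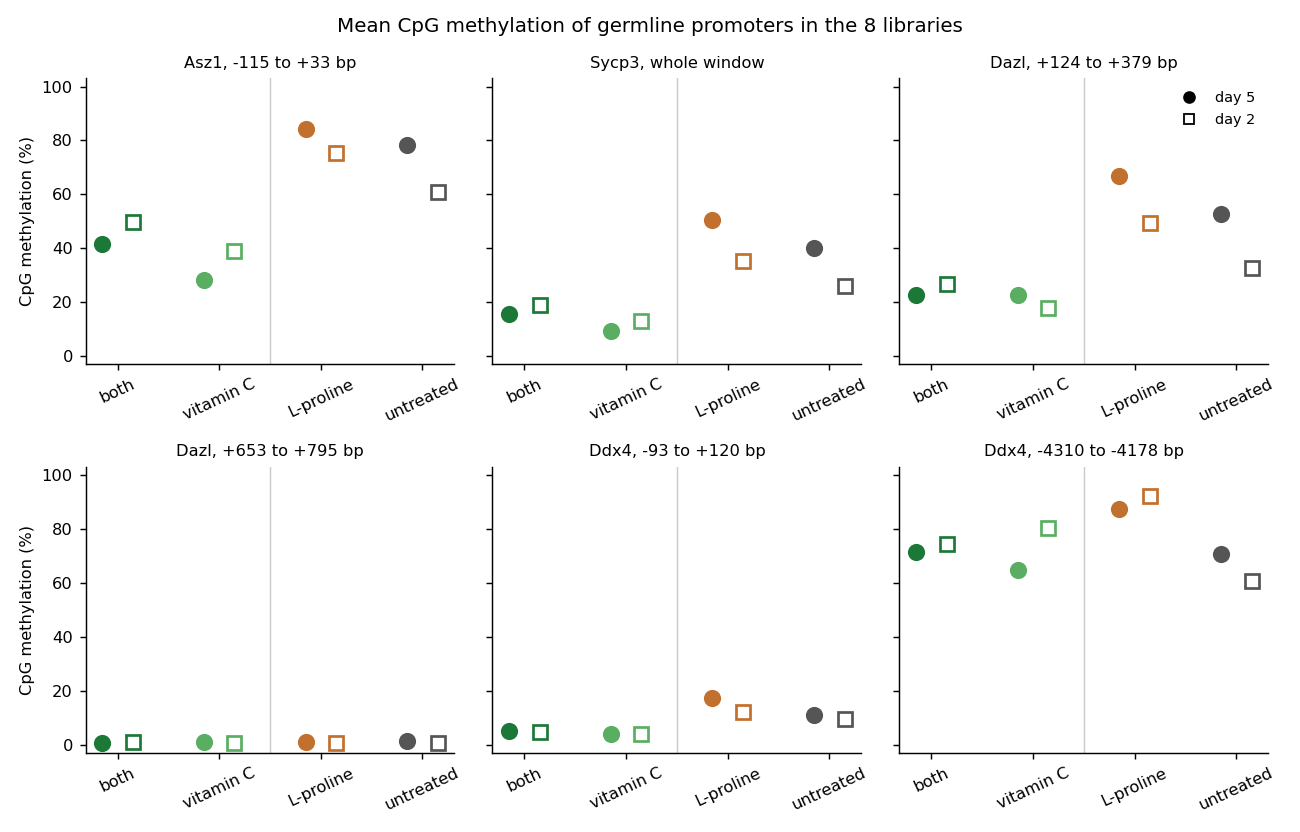
Mean CpG methylation (vertical axis, %) of 6 stretches of CpGs in the 8 libraries, by treatment (horizontal axis), with filled circles for day 5 and open squares for day 2, 1 library per symbol; positions are bases from the RefSeq start site. In the Asz1, Sycp3, Dazl +124 to +379 and Ddx4 start stretches every library with vitamin C lies below every library without, while the Dazl +653 to +795 stretch stays between 0.570 and 1.21% throughout.

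Single CpGs spanned a wide range within a promoter. The CpG with the largest mean vitamin C difference in each window is given as a description, since it was picked by that difference. In Asz1 it lay 97 bases before the start site and read 26.7% and 29.4% with both supplements at day 5 and day 2 and 23.5% and 8.33% with vitamin C. Without vitamin C the level was 86.0% and 42.9% with L-proline and 92.9% and 62.5% untreated. In Sycp3 it lay at chr10:87922514 and read 0 and 5.33% with both supplements and 0 and 0 with vitamin C. In the libraries without vitamin C the level was 66.7% and 48.8% with L-proline and 42.9% and 10.8% untreated. The 3 values of 0 rested on 12, 40 and 38 reads, which allow up to 25%, 7.5% and 7.89% (3 reads of the total). The Dazl CpG 278 bases after the start site read 12.5% and 41.2% with both supplements and 13.0% and 8.70% with vitamin C. Without vitamin C the level was 83.3% and 51.6% with L-proline and 68.4% and 54.2% untreated. The Ddx4 CpG 49 bases after the start site read 5.26% and 13.6% with both supplements and 13.2% and 3.33% with vitamin C. In the libraries without vitamin C the level was 43.3% and 31.0% with L-proline and 29.0% and 20% untreated. At each of these 4 CpGs the libraries with vitamin C lay wholly below those without, on 12 to 75 reads per library. Among all shared CpGs this held for 6.56%. Picking by the vitamin C difference favours such a separation, so it is no further result.

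The Ddx4 promoter allowed a look at the CpG inside each motif. The CpG of its CACGTG, at chr13:113442544 and 26 bases before the start site, was at 0 in 6 libraries, on 16 to 45 reads that allow up to 18.8% at the shallowest, and was at 6.67% with L-proline and 8.70% untreated at day 2. The CpG of its GCGGGA, at chr13:113442652, was listed in 4 libraries on 11 to 19 reads. It was at 0 with both supplements and with vitamin C at day 2 (which allows up to 15.8% and 27.3%), and at 57.1% with L-proline and 45.5% untreated at day 5, so that treatment and day differ between these values and no comparison was made.

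**Figure D2:**
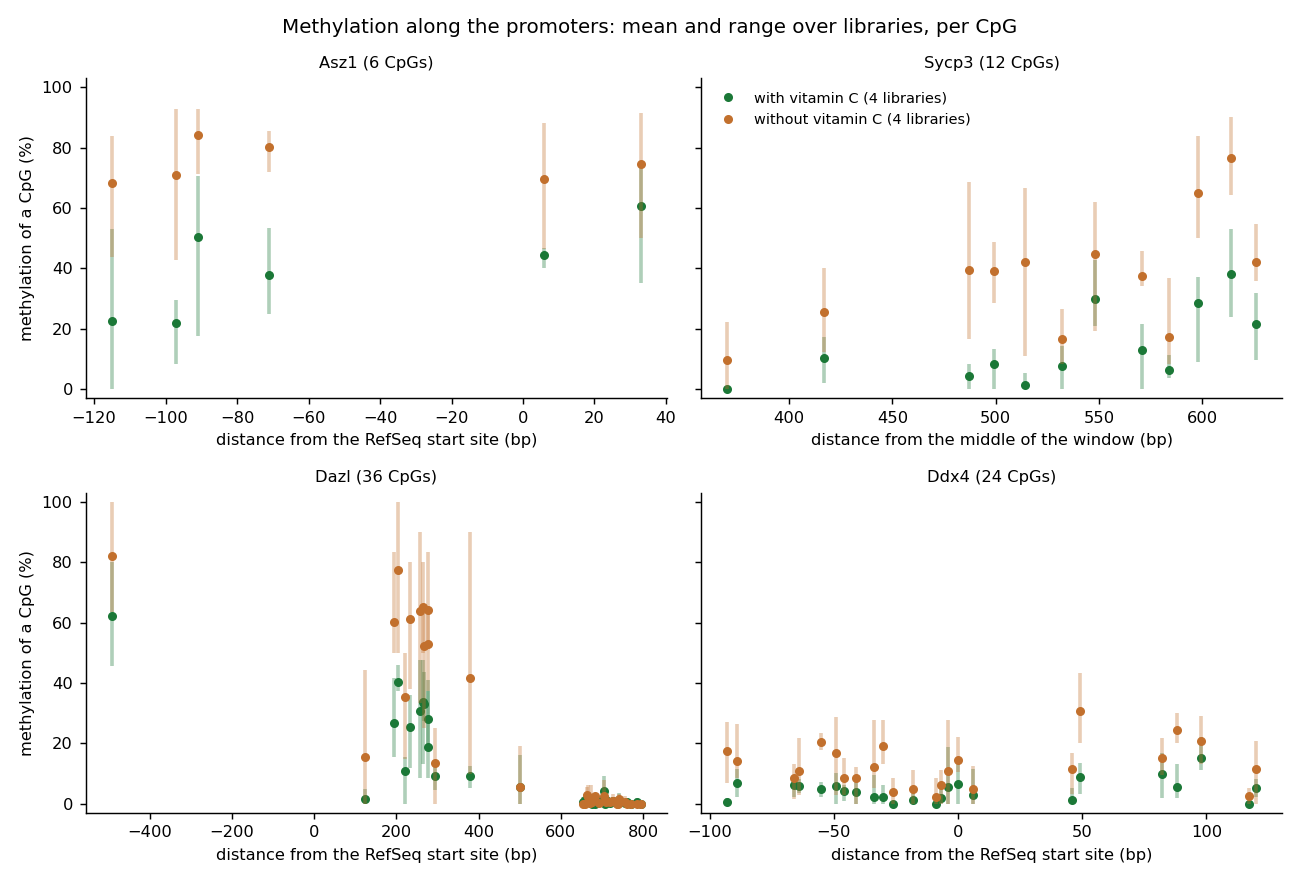
Methylation of each CpG listed in all 8 libraries (vertical axis, %) against its distance from the RefSeq start site, or for Sycp3 from the middle of the window (horizontal axis, bp); points are means and bars the range over 4 libraries with vitamin C (green) or 4 without (orange), and the 3 distant Ddx4 CpGs are left out. The 22 Dazl CpGs beyond 653 bases lie near 0 in both groups, while the 12 CpGs nearer the start separate.

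Over the CpGs of all windows, 31 of 81 were lower in all 4 vitamin C pairs and 0 were higher in all 4, against 14% lower and 0.174% higher among all shared CpGs. By gene these were 10 of 36 in Dazl, 6 of 27 in Ddx4, 10 of 12 in Sycp3 and 5 of 6 in Asz1. The 4 libraries with vitamin C lay wholly below the 4 without at 21 of the 81 CpGs, against 6.56% of all shared CpGs. Neighbouring CpGs share reads and are not independent. The shares over all shared CpGs take in CpGs of every level, and their median vitamin C difference was -0.568 points. CpGs near 0 cannot fall, and no share was taken over CpGs of like level. These counts therefore do not set the promoter CpGs apart from other methylated CpGs.

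The vitamin C comparison asks whether adding vitamin C went with lower promoter methylation, and it was made in 4 matched pairs of libraries, with and without L-proline on each day. All 4 windows were lower in 4 of 4 pairs, and flipping the signs of the 4 differences in every way (an exact permutation test, two-sided) gave p = 0.125 for each, the smallest that 4 pairs allow. Set against the mean over all shared CpGs, which differed by -4.14 ± 1.82 points, the gap was -30.9 ± 12 points for Asz1, -19.7 ± 8.79 for Sycp3, -5.76 ± 2.45 for Dazl and -3.61 ± 2.96 for Ddx4, negative in 4 of 4 pairs each (exact sign-flip permutation p = 0.125 each). Set against 158 CpG-dense 1 kb tiles that carried methylation, which differed by -14.3 ± 6.73 points, the gap was -20.7 ± 8.24 points for Asz1, -9.46 ± 4.03 for Sycp3 and -13.6 ± 6.12 for the 12 Dazl CpGs. For the 24 Ddx4 CpGs it was 6.25 ± 4.79 points (exact sign-flip permutation p = 0.125 for each of the 4). These CpGs averaged 12.5% without vitamin C and could not reach a mean difference of -14.3 points. Their gap therefore cannot show whether they responded less than the tiles. The whole windows differed by fewer points than these tiles in Dazl, with a gap of 4.45 ± 3.01 points, and in Ddx4, with 6.60 ± 4.37 points. Both gaps were positive in 4 of 4 pairs, with p = 0.125 by exact sign-flip permutation. Low levels limit these gaps too, since the windows averaged only 19.7% (Dazl) and 19.8% (Ddx4) without vitamin C. By runs of CpGs at most 100 bases apart and their pooled reads, all 4 libraries with vitamin C lay below all 4 without in 4 of the 6 promoter runs, against 25% of all runs, whatever their level.

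**Figure D3:**
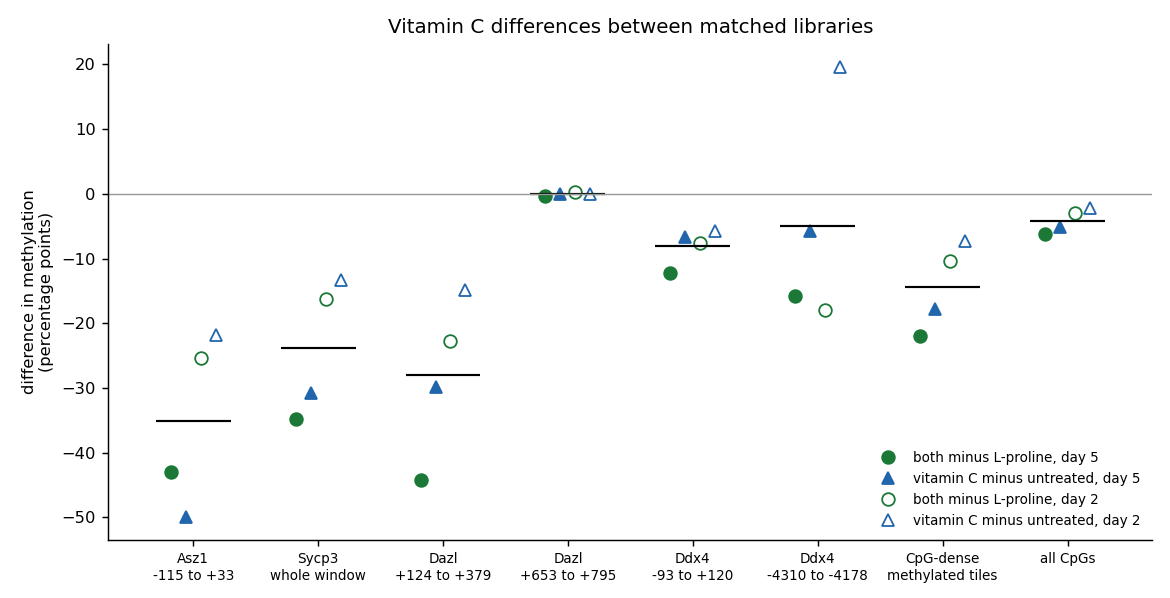
Difference in methylation (vertical axis, percentage points) between libraries with and without vitamin C for each of 4 matched pairs, with the mean as a black line, for 6 stretches of CpGs, for 158 CpG-dense tiles that carry methylation and for all 622768 shared CpGs. The Asz1, Sycp3, Dazl +124 to +379 and Ddx4 start stretches are below 0 in 4 of 4 pairs, with means of -35.0, -23.8, -28.0 and -8.10 points.

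A fit across the genome, limma with vitamin C, L-proline and day as terms on log2 of methylated over unmethylated reads in 1 kb tiles, gave each promoter an adjusted p over 50167 tiles. A tile was called when that p was below 0.05 and the pooled reads differed by at least 10 points. It called 2 of the 5 promoter tiles lower with vitamin C, against 23.2% of all tiles. They were Asz1 (limma coefficient -2.07 ± 0.43 SE, adjusted p = 0.0123) and Sycp3 (-1.94 ± 0.41 SE, adjusted p = 0.0125). The Ddx4 start tile passed on p (-1.54 ± 0.35 SE, limma adjusted p = 0.0141) and not on size, at -8.63 points, and 34.3% of all tiles were lower at such a p. The tile with 35 Dazl CpGs did not pass (-0.88 ± 0.36 SE, limma adjusted p = 0.0755). In the fit over 10 kb windows Asz1 and Sycp3 were called (limma adjusted p = 0.0109 each), against 28.8% of all windows, while Dazl (limma adjusted p = 0.0420) and Ddx4 (limma adjusted p = 0.0321) differed by less than 10 points, and 42.5% of all windows were lower at such a p. Where tiles were replaced by runs of CpGs at most 100 bases apart, a choice made after the data had been seen, 3 of 6 promoter runs were called, against 21% of all runs lower and 0.00184% higher: Asz1 (limma adjusted p = 0.0130), Sycp3 and the 12 Dazl CpGs (limma adjusted p = 0.0135 each). The 22 unmethylated Dazl CpGs gave a limma adjusted p of 0.522. All 3 run calls ended without the library with both supplements at day 5 (0 of 6, limma adjusted p = 0.0516 to 0.0520 for these 3) and without the untreated library of day 5 (0 of 6, limma adjusted p = 0.0517 to 0.0532). The count over all 54426 runs also fell in these fits, to 1860 and 2263, against 11455 with all 8 libraries. That of Sycp3 also ended without the vitamin C library of day 5 (limma adjusted p = 0.0511). The tile fit called 2 promoter tiles whichever of the 8 libraries was left out, with limma adjusted p of at most 0.0494 (Sycp3, without the untreated library of day 5). It called between 2659 and 14136 of all tiles in these fits, against 11645 with all 8 libraries.

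Both tile calls also ended under other models. A quasi-binomial fit gave adjusted p = 0.0658 for Asz1 and 0.0643 for Sycp3, and called 594 of all 50167 tiles. The Ddx4 start tile passed on p in that fit (quasi-binomial adjusted p = 0.0266) and not on size, at -8.63 points. The share of all tiles at such a p was not taken there. Centring every library on its median tile, which removes a vitamin C shift of -1.45 on the log2 scale, left coefficients of -0.62 for Asz1 and -0.49 for Sycp3 (limma adjusted p = 0.232 and 0.338), and 205 of all tiles were called. It turned that of the Dazl tile to 0.57 (limma adjusted p = 0.303), and left that of the Ddx4 start tile at -0.08 (limma adjusted p = 0.889). Set against the median tile, then, no promoter tile passed. The coefficient over all tiles went from -0.93 to 0.52 in this fit, so centring took off more than the tiles as a whole differed by. The sign of a centred coefficient therefore does not place a promoter above or below tiles as a whole. In the runs, centring turned the coefficient of the Ddx4 start CpGs to 0.03 (limma adjusted p = 0.962) and that of the 22 unmethylated Dazl CpGs to 1.2 (limma adjusted p = 0.0628). Over all runs the coefficient went from -0.89 to 0.67.

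Between single libraries, Fisher's exact test on the reads of each CpG (adjusted over all shared CpGs, called at 20 points or more) compares libraries and not conditions. With both supplements against L-proline it called 15 of the 81 promoter CpGs lower at day 5, against 5.67% of all shared CpGs, and 0 higher, against 0.012%. Of these 15, 5 each lay in Dazl and Sycp3, 4 in Asz1 and 1 in Ddx4. At day 2 it called 4 lower, against 0.609% of all. With vitamin C against untreated it called 10 lower at day 5, against 2.95% of all, and 0 at day 2, against 0.487% of all. With both supplements against untreated it called 4 lower at day 5, 3 of them in Dazl and 1 in Asz1, against 0.598% of all, and 0 at day 2, against 0.0499%. These shares, too, take in shared CpGs of every level, and none was taken over CpGs of like level.

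L-proline was compared in 4 pairs, with and without vitamin C on each day. Asz1 averaged 62.7% with L-proline and 51.6% without, and was higher in 4 of 4 pairs, by 11.1 ± 3.63 points (SD over the pairs; p = 0.125 by exact sign-flip permutation). Sycp3 averaged 30% with L-proline and 22.1% without and was also higher in 4 of 4 pairs, by 7.87 ± 2.07 points (exact sign-flip permutation p = 0.125). The Ddx4 start CpGs were higher in 4 of 4 pairs by 2.75 ± 2.72 points, and the 12 Dazl CpGs in 3 of 4 by 9.94 ± 7.47 points, the exception being -0.136 points between both supplements and vitamin C at day 5. Over all shared CpGs the L-proline difference was 2.05 ± 0.565 points, and over the CpG-dense methylated tiles 6.96 ± 2.60 points. Limma called 0 of the 5 promoter tiles for L-proline, as it called 0 of all 50167, and the smallest unadjusted p of the 5 was 0.0917, while 7613 tiles were higher and 385 lower at an unadjusted p below 0.05. The quasi-binomial fit also called 0 promoter tiles, and 19 of all tiles.

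With both supplements, Asz1 and Sycp3 lay between vitamin C alone and L-proline alone on both days. So did the means over all shared CpGs and over the CpG-dense methylated tiles. At day 5 these tiles were at 39.6% with both, 33.5% with vitamin C and 61.6% with L-proline. The 12 Dazl CpGs did not follow at day 5, with 22.4% with both and 22.6% with vitamin C. At day 5 Asz1 was at 41.3% with both, against 28.2% with vitamin C and 84.3% with L-proline, and Sycp3 at 15.4% with both, against 9.34% with vitamin C and 50.3% with L-proline. The pooled reads of Sycp3 at day 5 had a Wilson interval of 11.7 to 20.1% with both supplements and 5.98 to 11.2% with vitamin C, and those of Asz1 33.3 to 51.9% with both supplements and 21.4 to 38.2% with vitamin C. Fisher's exact test called 0 promoter CpGs between both supplements and vitamin C in either direction on either day, against at most 0.321% of all shared CpGs. The vitamin C by L-proline term of the tile fit had limma adjusted p = 1 in all 5 promoter tiles. Its unadjusted p was smallest in the tile of the 3 distant Ddx4 CpGs, at 0.0135 (coefficient -2.40 ± 0.81 SE, limma adjusted p = 1), and 3.66% of 50167 tiles had an unadjusted p below 0.05.

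The difference between day 5 and day 2 went in opposite directions with and without vitamin C in Asz1 and Sycp3. Asz1 at day 5 minus day 2 was -8.45 points with both supplements and -10.9 with vitamin C, but 9.10 with L-proline and 17.3 untreated. Sycp3 at day 5 minus day 2 was -3.50 points with both supplements and -3.47 with vitamin C, but 15 with L-proline and 14.0 untreated. The 12 Dazl CpGs were 17.2 points higher at day 5 with L-proline and 19.8 untreated, against -4.22 with both supplements and 4.84 with vitamin C. The opposite directions were not particular to these promoters. The mean over all shared CpGs was 17.8% at day 5 and 18.3% at day 2 with both supplements and 16.1% and 16.8% with vitamin C, against 24.0% and 21.3% with L-proline and 21.2% and 19.0% untreated. The 158 CpG-dense tiles were at 39.6% and 40.3% with both supplements and 33.5% and 36.2% with vitamin C, against 61.6% and 50.7% with L-proline and 51.3% and 43.5% untreated. The vitamin C by day term, which tests this contrast across the genome, had an unadjusted p of 0.0320 for the Asz1 tile and 0.0494 for the Sycp3 tile (limma adjusted p = 0.393 and 0.404), as 12.3% of all tiles had an unadjusted p below 0.05 and 0 passed the adjusted threshold. Averaged over the 4 treatments, day 5 minus day 2 was 1.78 ± 13.7 points in Asz1, 5.52 ± 10.4 in Sycp3, 9.40 ± 11.2 in the 12 Dazl CpGs and 1.81 ± 2.34 in the 24 Ddx4 CpGs. Limma called 0 promoter tiles for day and 0 of all 50167, where 3288 of all tiles were higher and 490 lower at an unadjusted p below 0.05. Fisher's exact test called 1 promoter CpG for day, 97 bases before the Asz1 start site, at 86.0% at day 5 against 42.9% at day 2 with L-proline (adjusted p = 0.0269), against 0.884% of all shared CpGs.

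Several libraries listed further CpGs of these promoters that others lacked, and these are given without a test. The 8 Dazl CpGs from the start site to 48 bases after it, of which 5 are the capitals at the end of the printed sequence, read 23.2% and 37.5% with both supplements at day 5 and day 2 and 33.7% with vitamin C at day 5, against 60.2% with L-proline and 57.3% untreated at day 2. In the 4 Asz1 CpGs from 42 to 3 bases before the start site the level was 53.6% and 47.0% with both supplements and 71.4% and 78.6% with L-proline. The 5 Asz1 CpGs from 70 to 119 bases after the start site overlapped between groups, with 67.3% at day 5 and 51.4% at day 2 with both supplements and 32.3% with vitamin C at day 5, against 72.6% and 84.6% with L-proline and 65.5% untreated at day 5. The 8 Ddx4 CpGs from 134 to 99 bases before the start site were at 11.2% with both supplements and 4.55% with vitamin C at day 2, against 17.0% with L-proline and 31.8% untreated at day 5. The 2 Dazl CpGs from 617 to 608 bases before the start site were at 80% and 86.4% with both supplements and 34.6% with vitamin C at day 5, against 100% and 81.8% with L-proline and 95.2% untreated at day 5. Another 3 CpGs of the Sycp3 window were at 17.8% and 16.7% with both supplements and 10% with vitamin C at day 5, against 33.3% with L-proline at day 2 and 50% untreated at day 5. These values rest on 10 to 31 reads a CpG.

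Other genes of the germline programme were looked for among the RefSeq promoters that could be placed by CG spacing, a step added after the data had been seen. Of 50 genes listed for this purpose, 42 had a promoter sequence and 10 could be placed and tested over 1 kb on each side of the start. Limma over 6071 placed promoters called 5 of these 10 lower with vitamin C and 0 higher, against 1.27% and 0% of all placed promoters. It also called Asz1 (limma adjusted p = 0.0152) but neither Ddx4 (limma adjusted p = 0.0173, under 10 points) nor Dazl (limma adjusted p = 0.123). Of the 6071 promoters, 129 had a mean level of 10% or more, and the fit called 50.4% of these 129, so the calls of germline promoters are to be read against that share as well. All 5 called genes had a mean level of 10% or more.

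Among the called genes, Sycp1 and Hormad1 encode proteins of the meiotic chromosome axis and synaptonemal complex. The methylated share of reads in Sycp1 was 35.3% at day 5 and 32.6% at day 2 with both supplements and 30% and 28.9% with vitamin C. Without vitamin C the level was 66.5% and 51.7% with L-proline and 59.5% and 41.6% untreated. Hormad1 averaged 22.4 ± 4.99% with vitamin C and 49.2 ± 11.8% without. Slc25a31, the germ cell form of the mitochondrial ADP/ATP carrier, averaged 32.3 ± 4.35% with vitamin C and 56.1 ± 12.9% without. Mael, a factor of the piRNA pathway, averaged 5.51 ± 1.19% with vitamin C and 18.5 ± 4.74% without. Gpat2, a mitochondrial acyltransferase of the testis, was the most uneven, at 9.07% and 5.42% with both supplements and 4.37% and 1.33% with vitamin C. In the libraries without vitamin C the level was 46.5% and 19.9% with L-proline and 17.8% and 9.74% untreated (day 5 and then day 2). The matched differences of the 5 ran from -26.8 points (Hormad1) to -13.0 points (Mael), each lower in 4 of 4 pairs, and their limma adjusted p from 0.0111 (Gpat2) to 0.0360 (Slc25a31).

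None of the other 5 was called, and each had a mean level below 10%. They averaged 0.220% (Mei4) to 9.80% (Hormad2) without vitamin C. None could therefore fall by the 10 points of a call, and the missing calls say nothing about their response. Meioc, a regulator of meiotic prophase, and Smc1b, a meiotic cohesin, passed on p (limma adjusted p = 0.0328 and 0.0152). Their differences were -4.66 and -2.91 points, from 7.99% and 3.47% without vitamin C. Of all placed promoters, 8.02% were lower at such a p. Mei4, which acts in meiotic double-strand break formation, went the other way, at 0.984 ± 0.4% with vitamin C and 0.220 ± 0.178% without, higher in 4 of 4 pairs (limma adjusted p = 0.0398), a difference of 0.764 points that is under the 10 needed for a call, and 0.115% of all placed promoters were higher at such a p. All 8 Mei4 levels lay between 0 and 1.39%, on 552 to 1070 reads, so few methylated reads set this difference. Hormad2 (-5.45 points, limma adjusted p = 0.118) and Tdrd5 (-0.569 points, limma adjusted p = 0.296) did not pass. The median difference of the 10 was -9.24 points, beside -0.110 for all placed promoters and -12.8 for the 129 of at least 10%. With L-proline all 10 had a positive mean difference, and limma called 0 of them and 0 of all placed promoters, of which 405 were higher and 89 lower at an unadjusted p below 0.05. Leaving out 1 library lowered the number of these calls, and with it that over all placed promoters, which was 77 with all 8. Without the L-proline library of day 5 there were 0, and 2 over all placed promoters. Without any 1 of the other 3 libraries of day 5 there was 1, and 15 to 26 over all. Without the library of both supplements at day 2 there was 1, and 42 over all, and without the L-proline library of day 2 there were 3, and 69 over all. Without either of the other 2 libraries of day 2 there were 5. The Asz1 call in this fit also ended without any 1 of the 4 libraries of day 5 (limma adjusted p = 0.0596 to 0.0666).

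**Figure D4:**
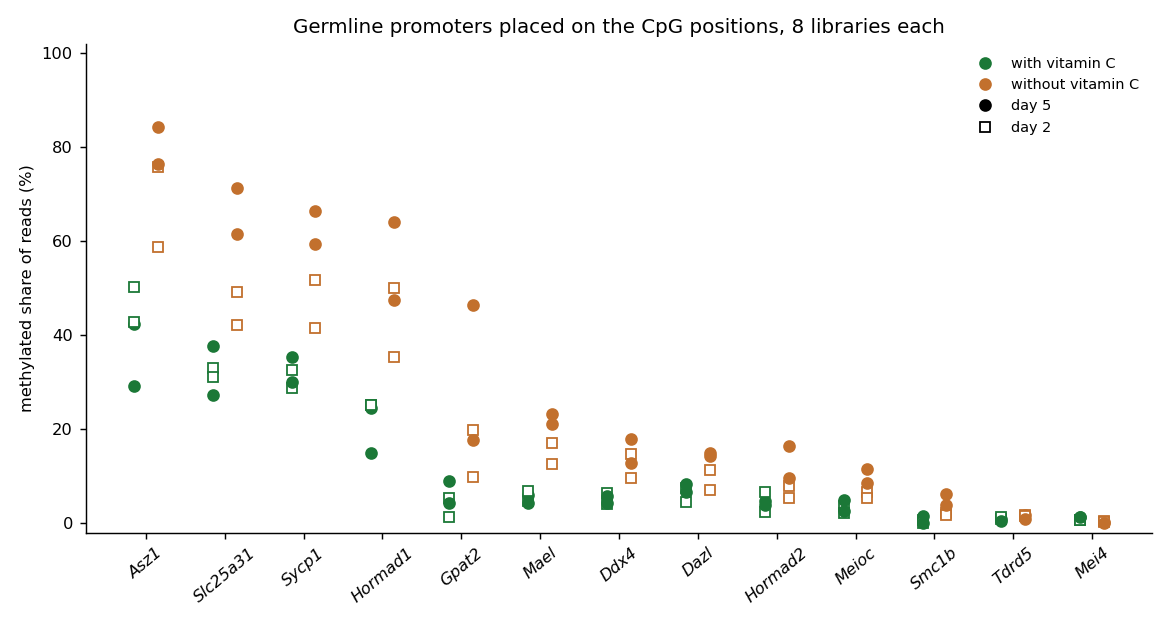
Methylated share of reads (vertical axis, %) in 13 placed germline promoters, within 1 kb of the start site, in libraries with vitamin C (green, left) and without (orange, right), filled circles for day 5 and open squares for day 2, 1 library per symbol. The libraries with vitamin C lie wholly below those without in 7 of the 10 genes other than Asz1, Ddx4 and Dazl, against 13.5% of all placed promoters. Of the 6071 placed promoters, only 129 had a mean level of 10% or more, and the share among promoters of like level was not taken.

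**Figure D5:**
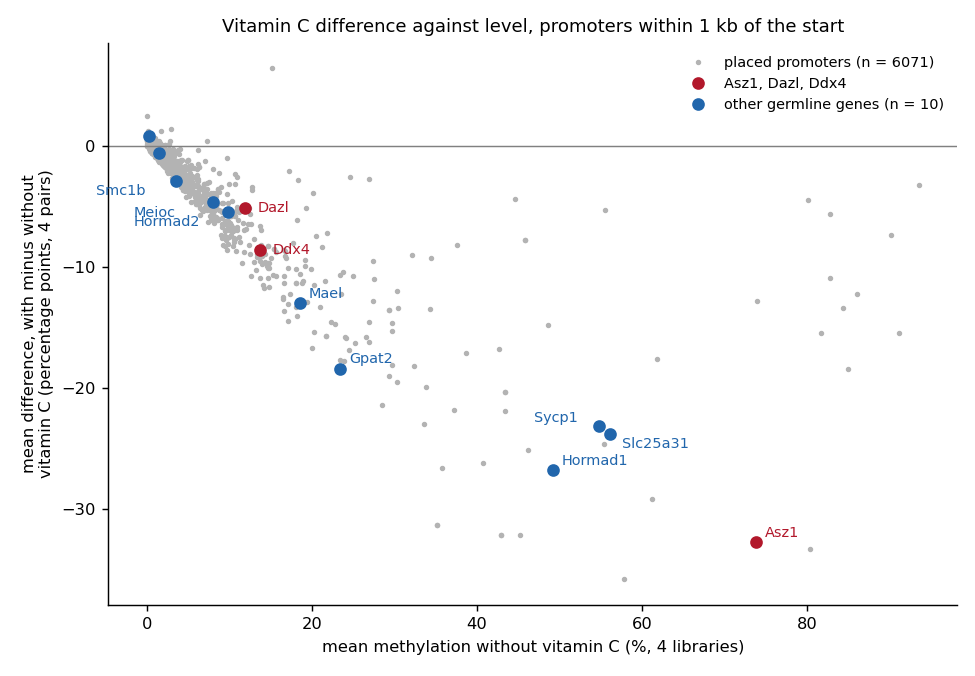
Mean vitamin C difference over 4 matched pairs (vertical axis, percentage points) against mean level in the 4 libraries without vitamin C (horizontal axis, %), 1 point per placed promoter (n = 6071), with germline genes in colour. The germline promoters lie among others of like level, with Asz1 at -32.7 points.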

How the data were processed

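Per the labels, DNA from 8 stem cell cultures was made into RRBS libraries, and per the submitters' processing notes CASAVA and BSMAP 2.88 were used with build mm9. Each deposited file lists CpGs covered by at least 10 reads, with a coverage count per CpG and the methylated fraction, both made by the authors; whether strands were merged is not stated in those sources. The deposited count was a whole number for 99.3 to 99.6% of the CpGs of a library, and the others were rounded. Methylated reads were recovered as the count times the fraction, rounded to a whole number. This product was checked only at CpGs with a whole count, the most deeply covered left out. There it came out whole, within 0.0005 times the count, for 100%. CpGs listed in all 8 libraries on the autosomes and sex chromosomes were kept, except in the blocks named as partly listed. The level of a stretch is the mean of its CpG percentages; the fits and the placed promoters use pooled reads. Python 3.11.15, scipy 1.17.1, R 4.3.3 and limma 3.58.1 were used, with 1 read added to each count, at least 3 CpGs per tile, window, run or promoter, and Benjamini-Hochberg adjustment over all features of a fit. The limma and Fisher scripts were tested on simulated data. Since every treatment and day is 1 library, limma's spread is that between libraries around additive terms, and pairs are matched libraries, not separate cultures of 1 condition.

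No mm9 annotation was used. A RefSeq promoter was placed where every listed CpG in its 300 bases matched a CG letter and at least 8 did; this placed 6862 of 32851 promoters, and 99.9% of those had a neighbour shifted by a like amount. The other germline genes were placed in this way in place of an annotation of the build. The members, the gene lists and the rules were chosen with earlier results of these data known. All 5 members were described; the CpG named in each window is the 1 with the largest mean vitamin C difference. Alternatives were coverage minimums of 20 and 30 reads, all listed CpGs, pooled reads, the central part of a window, another pseudocount, a quasi-binomial model, centred libraries, interaction terms and leaving out libraries or pairs.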

Additional observations from a re-analysis of the deposited data

Results flagged for a closer look

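Among the 4 libraries with vitamin C, the whole Ddx4 window of the vitamin C library of day 5 stood apart, at 10.8%, where the nearest of the other 3 was at 12.3%; its gap was 0.873 of the range of the 4. Chance sets a library apart by this measure in about 1 group of 20. The 3 distant CpGs, which are part of this window mean, were the lowest of the 4 in that library, at 64.9%. The 24 start CpGs were not, at 4.07% against 3.88% with vitamin C at day 2.

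The difference between day 5 and day 2 ran in opposite directions with and without vitamin C in 2 windows. In Sycp3 it averaged -3.49 points with vitamin C and 14.5 points without, a gap of -18.0 points, and in Asz1 it averaged -9.66 points with vitamin C and 13.2 points without, a gap of -22.9 points. The means over all shared CpGs and over the 158 CpG-dense tiles ran in the same opposite directions. The vitamin C by day term of the tile fit did not pass adjustment for either (limma adjusted p = 0.404 and 0.393). In the 22 nearly unmethylated Dazl CpGs the L-proline difference averaged -0.389 points at day 5 and 0.184 points at day 2, a gap of -0.574 points that was not tested.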

How the results depend on the processing

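In points, the vitamin C differences of the Asz1, Sycp3 and Ddx4 windows kept their sign under the alternatives of coverage, CpG choice and pooling. They also kept it in the central window and with 1 pair left out. So did that of Dazl except at a minimum of 30 reads, where 2 CpGs were left and it was 0.286 points. At 20 reads, with 14 CpGs, the Dazl difference was -0.346 points. All Dazl CpGs left at 20 or 30 reads were among the 22 nearly unmethylated ones. The 12 methylated Dazl CpGs from 124 to 379 bases after the start site dropped out, so these settings do not bear on their difference. The L-proline difference of Dazl turned to -0.226 points at 20 reads and -1.18 at 30, again in nearly unmethylated CpGs only. In the fits, centring turned the vitamin C coefficient positive for Dazl in its tile (0.57), window (0.21) and run of 22 CpGs (1.2), and for Ddx4 in its window (0.09), start run (0.03) and distant tile (0.64) and run (0.75). The coefficient over all features turned positive as well, to 0.52 in tiles, 0.15 in windows and 0.67 in runs. Leaving out 1 pair moved the day difference of Asz1 between -3.41 and 5.99 points; it was -0.665 without the L-proline pair. Of the 2 promoter tiles called for vitamin C, 1 was left at 20 reads, where Asz1 no longer had 3 CpGs, and 0 with centred libraries or the quasi-binomial model. Centring also left 0 windows and 0 runs, and the quasi-binomial model 0 runs. In the placed promoters, where centring removed a shift of only -0.18, the Asz1 call stayed (limma adjusted p = 0.0238). That fit called 60 of all placed promoters. Ddx4 passed on p there (limma adjusted p = 0.0325) but stayed under 10 points. Leaving out 1 library gave 0 to 3 called promoter runs, 0 to 1 called placed promoters of Asz1, Ddx4 and Dazl, and 0 to 5 called other germline promoters. The other germline promoters called were 3 with a pseudocount of 0.5 reads and 3 with centred libraries. At 20 reads, with 30 promoter CpGs left, Fisher's exact test called 3 at day 5 and 1 at day 2 for both supplements against L-proline, 2 for vitamin C against untreated and 0 for both supplements against untreated at day 5, and 0 for L-proline at day 5 against day 2. The cause was not tested beyond the smaller number of CpGs. Besides the pairs matched by treatment and day, no paired analysis was possible because each treatment and day was 1 library, with no replicate. Depth limits single CpGs most, at 10 to 125 reads each, and the Asz1 window, at 6 CpGs.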
